A study of Mus musculus with 27 samples.

Results

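To examine adipocytes and the machinery of fat storage after muscle injury, 10 genes were followed one by one: the adipocyte products Adipoq, Lep and Cfd, the lipid droplet proteins Plin1, Plin4 and Cidec, and the lipolysis genes Adrb3, Lipe, Pnpla2 and Abhd15. The genes were chosen by name, with earlier results of these data known. Each was found once in both deposited expression tables, which hold 55852 and 55677 entries, and all 10 are reported. Adipocytes lie between muscle fibres and can accumulate in muscle that regenerates poorly. Fat is stored as triglyceride in a droplet whose surface is coated by perilipins. At rest, perilipin 1 keeps lipases away from the droplet. When a catecholamine binds the β3-adrenergic receptor, perilipin 1 is phosphorylated, adipose triglyceride lipase and hormone-sensitive lipase gain access, and fatty acids are released. Some of these proteins are largely restricted to fat cells, while others also work in the muscle fibre, so the genes were kept apart and no score was made of them.

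Muscle of male mice was injured by injection of cardiotoxin (CTX), which destroys muscle fibres but spares their stem cells. Injured muscle came from WT mice and from mice labelled Gsdme KO 1, 4, 7 or 14 days later (named D1, D4, D7 and D14, with n = 3 libraries per genotype and day), and uninjured WT control muscle gave 3 further libraries, 27 in all. Gsdme encodes gasdermin E, which forms pores in the cell membrane once cut by a caspase. The KO was global. The methods name purchased WT C57BL/6J mice and also littermates homozygous for the KO or the WT allele. Which of these gave the WT libraries, and the background of the KO line, are not stated. The sources differ on the muscle, which is the gastrocnemius with the uninjected opposite leg as control in the methods, but thigh muscle with an unloaded control in the sample labels. For the same samples the titles say KO and the genotype field says knockdown, so KO here means a library labelled KO, and no ages are given. Nothing states whether the 3 libraries of a group came from separate mice, so p values measure the spread between libraries, which may be technical.

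Values are TPM, a level per transcript length that adds up to the same total in each library, so that the depth is unknown and a low value cannot be given a counting error. Between 11785 and 14704 genes reached 1 TPM in a library, and 25.4% to 61.4% of the TPM came from the top 50 genes. KO D4 replicate 2 stood apart from the other KO D4 libraries, with 51.1% of TPM from its top 50 genes, against 33.5% and 39.3%. Gsdme itself was 2.76 to 4.85 TPM in WT and 1.28 to 2.17 TPM in KO on D1. On D4 it was 2.63 to 3.02 TPM in WT and 1.00 to 1.64 TPM in KO, and on D7 it was 1.80 to 2.51 TPM and 0.95 to 1.37 TPM. On D14 the libraries overlapped, at 1.46 to 2.26 TPM in WT and 1.27 to 1.96 TPM in KO. Which part of the gene is deleted is not given in the sources used here, so that this gene-level value does not check the D14 labels.

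Adipoq (ENSMUSG00000022878, mm10 chr16:23146536-23158028) encodes adiponectin, a hormone secreted by fat cells, and its RNA is among the most specific signs of an adipocyte. In uninjured WT control muscle, Adipoq was 23.1, 32.4 and 30.3 TPM. On D1 it was 0.80, 1.95 and 16.8 TPM in WT and 19.8, 4.97 and 1.53 TPM in KO, so that 1 library of each genotype was nearest to the control level and the others were far below it. On D4 the WT libraries were 47.0, 12.7 and 10.3 TPM and the KO libraries 36.4, 59.0 and 24.2 TPM. On D7 the 2 genotypes lay close together, at 9.41, 7.41 and 10.1 TPM in WT and 16.1, 12.2 and 10.9 TPM in KO. By D14 they had parted: WT was 2.65, 4.92 and 2.20 TPM, and KO was 18.2, 72.2 and 48.9 TPM, so that the lowest KO library was more than 3 times the highest WT library. The ratio of the D14 means was 14.3. In bulk muscle, more adipocytes and more RNA per adipocyte cannot be told apart.

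Plin1, Cidec and Cfd parted between the genotypes in the same way on D14. Plin1 (chr7:79720218-79732903, minus strand) encodes perilipin 1, the gatekeeper of the adipocyte droplet. It was 1.41, 1.98 and 1.12 TPM in WT D14 libraries and 7.5, 25.1 and 18.9 TPM in KO D14 libraries. Cidec (chr6:113424634-113435760, minus strand) encodes a protein that fuses small droplets into the single large droplet of white fat, and it was 1.49, 3.67 and 2.59 TPM in WT and 12.4, 60.8 and 35.2 TPM in KO on D14. Cfd (chr10:79890853-79892655) encodes adipsin, a serine protease of the complement system secreted by fat cells. On D14 Cfd was 41.0, 70.0 and 45.9 TPM in WT and 267.9, 1058 and 797.9 TPM in KO. For all 3 genes the D14 genotypes did not overlap, and KO replicate 2 was the highest and KO replicate 1 the lowest of the KO libraries, as for Adipoq.

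**Figure D1:**
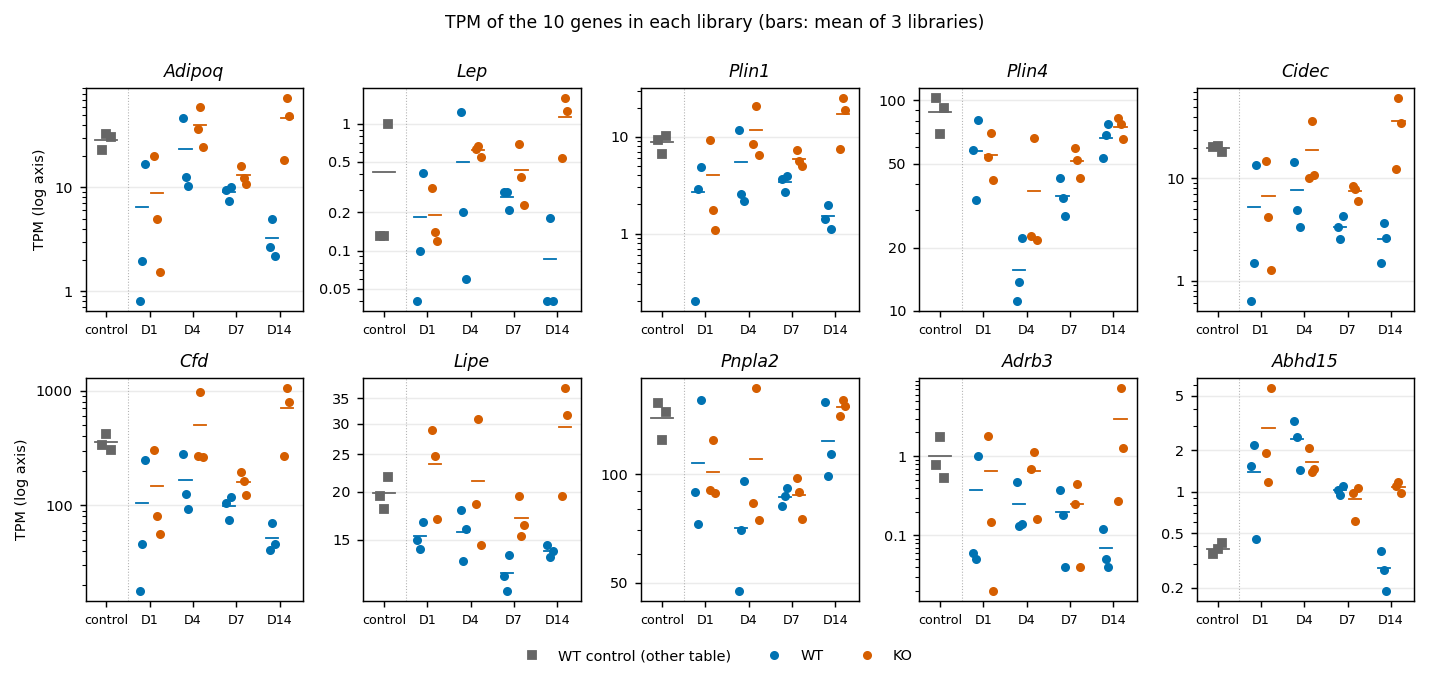
TPM (log axis) of each of the 10 genes in uninjured WT control muscle (grey squares, from the separately made control table) and in WT (blue) and KO (orange) muscle on D1, D4, D7 and D14; each point is 1 library and each bar the mean of 3. On D14 the KO points of 8 genes lie above all WT points, and those of Plin4 and Pnpla2 overlap with WT.

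The 100 bases before the RefSeq start site are shown for Adipoq, Cidec and Cfd, whose levels rose and fell together, and for Lep, which holds the rarest of the motifs searched. Capitals mark matches, on either strand, to any of 6 motifs that are spelled out beside their counts. The positions on mm10 are chr16:23146436-23146535 for Adipoq (plus strand), chr6:113435761-113435860 for Cidec (minus strand), chr10:79890753-79890852 for Cfd (plus strand) and chr6:29060121-29060220 for Lep (plus strand).
Adipoq: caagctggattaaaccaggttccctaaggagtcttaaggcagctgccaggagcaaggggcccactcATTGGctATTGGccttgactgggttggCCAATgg
Cidec: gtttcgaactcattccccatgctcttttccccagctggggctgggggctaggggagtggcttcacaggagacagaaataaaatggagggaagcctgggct
Cfd: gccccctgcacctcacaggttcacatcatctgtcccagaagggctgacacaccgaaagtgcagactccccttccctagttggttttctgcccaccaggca
Lep: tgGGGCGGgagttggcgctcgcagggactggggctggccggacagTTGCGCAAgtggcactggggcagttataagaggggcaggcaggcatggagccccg

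RefSeq promoters, from 250 bases before to 50 after the start site, were at hand for 9 of the 10 genes (11 start sites, none for Adrb3). The Adipoq promoter held the CCAAT box, spelled CCAAT, at 3 places within 34 bases of the start site. At least 1 such box was present at 3 of the 11 start sites and in 37.4% of all 32851 promoters. A palindromic site of the C/EBP factors, which drive fat cell formation, lay 55 bases before the Lep start site. Its letters, TTGCGCAA, are found in 0.183% of all promoters and at none of the other start sites. The GC box GGGCGG was found at 4 of the 11 start sites and in 35.7% of all promoters. For the E box CACGTG the numbers were 1 of the 11 start sites, that of Lipe, and 7.15% of all promoters. The nuclear receptor half-site AGGTCA, held by 16.3% of all promoters, was in none of the 11 windows. The same was true of the TATA box TATAAA, held by 13.6% of all promoters. Cidec and Cfd, the pair with the highest correlation of all, held none of the 6 motifs in these windows. A match is a description of the sequence and not a bound site, and the absence of a match says only that the letters are not in the window.

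Lep (chr6:29060220-29073877) encodes leptin, the hormone by which fat cells report their triglyceride stores. Its level was low throughout. Lep was 0.04, 0.18 and 0.04 TPM in WT and 0.54, 1.59 and 1.26 TPM in KO on D14, without overlap, and 0.13, 0.13 and 0.99 TPM in control muscle. Only 3 libraries reached 1 TPM (WT D4 replicate 1 at 1.24 TPM and KO D14 replicates 2 and 3), so that Lep entered the test only through libraries where it was high. Adrb3 (chr8:27225776-27250616, minus strand), which encodes the β3-adrenergic receptor, was 0.12, 0.05 and 0.04 TPM in WT and 0.27, 7.32 and 1.28 TPM in KO on D14. The KO libraries differed among themselves more than the lowest of them differed from WT, and KO D14 replicate 2 set the mean. Of the exonic bases of Adrb3, 24.9% are shared with an annotated antisense gene, and use of strand in counting is not stated.

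The lipase genes varied less than these adipocyte genes over the 24 injured libraries. The highest library was 3.37 times the lowest for Lipe and 3.64 times for Pnpla2, against 90.2 times for Adipoq. Lipe (chr7:25379527-25398710, minus strand) encodes hormone-sensitive lipase, which cleaves diglycerides and is present in fat and in oxidative muscle fibres. In WT it varied little, from 11 to 17.9 TPM over all days, and control muscle had 19.5, 18.0 and 21.8 TPM. On D14 Lipe was 14.5, 13.5 and 14.0 TPM in WT and 19.5, 37.2 and 31.6 TPM in KO. It was the only one of the 10 genes whose KO libraries were all above the WT libraries on 3 of the 4 days, with 15.0, 14.2 and 16.6 TPM in WT against 28.9, 24.8 and 17 TPM in KO on D1. On D4 the libraries overlapped. An annotated antisense gene covers 15.6% of its exonic bases.

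Pnpla2 (chr7:141455198-141460743) encodes adipose triglyceride lipase, which takes the first fatty acid from triglyceride in fat, muscle and heart. Its level in control muscle was 157.3, 123.9 and 148.5 TPM, higher per length than that of any other of these genes but Cfd. On D14 it was 158.0, 98.6 and 113.7 TPM in WT and 144.8, 160.7 and 154.1 TPM in KO, and the genotypes overlapped. Plin4 (chr17:56100591-56109803, minus strand) encodes a perilipin of nascent droplets that muscle fibres also make, and it too overlapped on D14, at 53.2, 68.3 and 77.5 TPM in WT and 82.7, 77.4 and 65.4 TPM in KO. Its low point was D4, with 11.1, 13.7 and 22.1 TPM in WT and 22.8, 66.3 and 21.7 TPM in KO. The 66.3 TPM belonged to KO D4 replicate 2, the library that stood apart.

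Abhd15 (chr11:77515121-77538607) encodes an adipocyte protein that restrains lipolysis by stabilizing a phosphodiesterase. Between control and D1 it ran against the others: the control libraries, at 0.35, 0.38 and 0.42 TPM, were below every WT library of D1 in the same table. WT libraries held 1.53, 2.20 and 0.45 TPM on D1 and 3.28, 2.48 and 1.44 TPM on D4, after which WT D7 was 1.03, 0.94 and 1.10 TPM and WT D14 was 0.37, 0.27 and 0.19 TPM. KO on D14 remained at 1.10, 1.18 and 0.97 TPM, and these libraries did not overlap with WT. Abhd15 shares 29.1% of its exonic bases with one annotated gene of the opposite strand, 10.8% with Trp53i13 and 3.10% with Taok1, so that its reads cannot be told apart from theirs without strand. Plin4 shares 0.294% with a gene of the opposite strand, and the other 6 genes overlap with none.

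To ask whether the genotypes differed, log2(TPM + 1) was fitted with limma for all genes that had at least 1 TPM in at least 3 libraries (15718 genes, with all 10 genes among them), and p values were adjusted over these genes by the Benjamini-Hochberg method. A gene with an adjusted p under 0.05 is referred to as called. On this scale the change of genes with low TPM is understated. On D14 the KO libraries were higher than all WT libraries for 8 of the 10 genes, against 7.37% of all genes tested. Of these 8, Lep and Adrb3 reached 1 TPM in only 3 and 5 of the 24 libraries. They thus entered the test only through libraries where they were high. The fitted difference, KO minus WT, was 3.33 ± 0.77 for Adipoq (SE; adjusted p = 0.245), 3.56 ± 0.77 for Cfd (adjusted p = 0.221), 3.16 ± 0.76 for Cidec (adjusted p = 0.285) and 2.73 ± 0.64 for Plin1 (adjusted p = 0.245). None of the 10 genes was called, and 0% of all genes were, since the lowest adjusted p of any gene was 0.0646. At an unadjusted p under 0.05, 8 of the 10 genes, Lep and Adrb3 among them, and 324 of all 15718 passed. By unadjusted p, Cfd ranked 12, Adipoq 21, Plin1 25, Cidec 30, Lipe 32 and Lep 36 among all genes.

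The remaining D14 differences were smaller. They were 0.97 ± 0.24 for Lipe (SE; adjusted p = 0.361), 0.94 ± 0.24 for Lep (adjusted p = 0.367), 1.43 ± 0.48 for Adrb3 and 0.71 ± 0.32 for Abhd15. Pnpla2, at 0.34 ± 0.31, and Plin4, at 0.19 ± 0.36, were the smallest of the 10, Pnpla2 close to its error and Plin4 below it, and the median over all genes was 0.08. The exact two-sided permutation test of 3 libraries against 3 cannot give a p below 0.1, which the 8 genes without overlap reached.

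**Figure D2:**
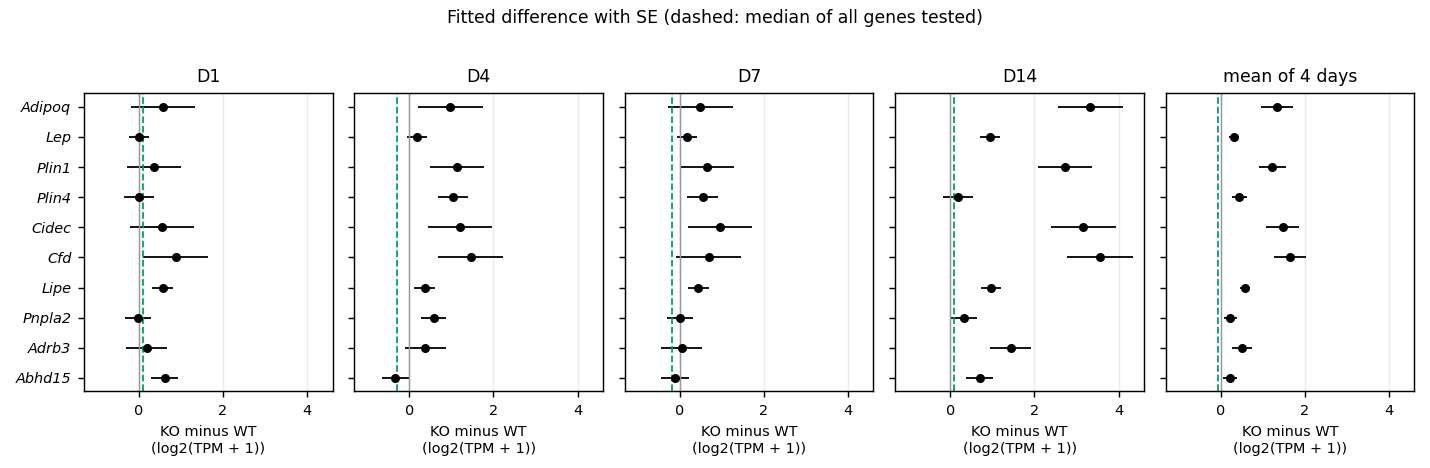
Fitted difference, KO minus WT, in log2(TPM + 1) for each gene on each day and averaged over the 4 days; points are estimates, bars 1 SE from the fit over all 24 injured libraries, and the dashed line is the median of all genes tested. The 4 largest values, of Cfd, Adipoq, Cidec and Plin1, lie between 2.73 and 3.56 on D14.

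No D14 difference among the 10 genes rested on a single library for its direction, but the sizes moved. Without KO D14 replicate 2, the highest library, the difference of Adipoq was 2.91 and that of Cfd 3.16, and Adrb3 was more than halved, to 0.67. Without KO D14 replicate 1, the lowest, Adipoq was 3.88 and Cfd 4.15, Adrb3 was 2.03, and Lipe, at 1.24, became the only one called (adjusted p = 0.0479), against 0.165% of all genes. With libraries weighted by their estimated quality, 6 of the 10 genes were called on D14, against 0.324% of all genes (Cfd adjusted p = 0.00561, Adipoq and Plin1 0.0126, Cidec 0.0128, Lep 0.0252 and Lipe 0.0272), a setting whose weights stopped short of convergence. Among these genes, Lep entered the test only through libraries where it was high. With the pseudocount at 0.1 TPM, the low genes were larger: 2.69 for Lep, 3.23 for Adrb3 and 1.68 for Abhd15.

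**Figure D3:**
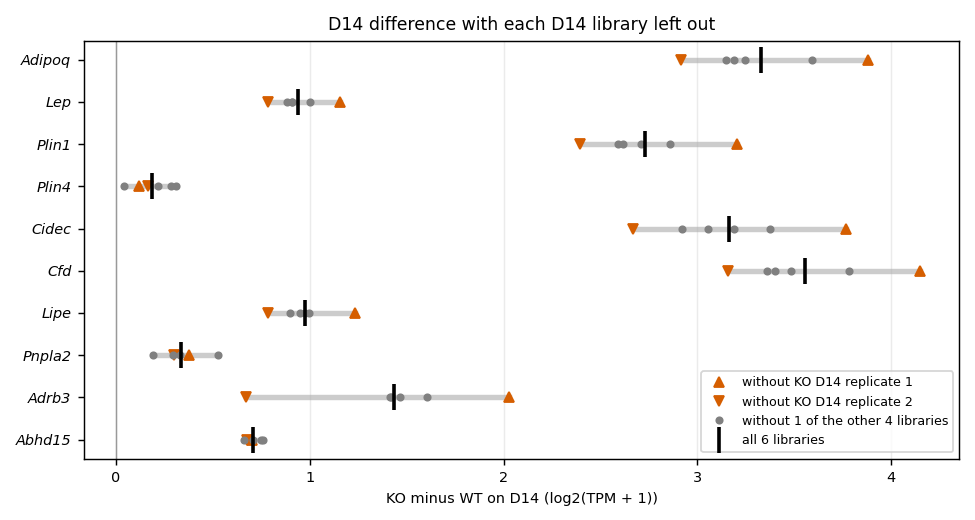
KO minus WT on D14, in log2(TPM + 1), with all 6 D14 libraries (black bar) and with each left out in turn (triangles, KO replicates 1 and 2; grey points, the other 4 libraries; grey band, the range). Every value is above 0, from 0.04 for Plin4 to 4.15 for Cfd.

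Markers of other cells in the D14 libraries were examined beside these results. The summed TPM of 8 Schwann cell genes was 136.0, 184.4 and 79.5 in WT and 96.1, 454.1 and 349.6 in KO, so that KO replicates 2 and 3, the libraries highest in Adipoq, were also highest in nerve sheath genes. The sum of 5 neutrophil genes was 1.58 to 2.26 TPM in WT and 4.36 to 7.46 TPM in KO. The sums of 7 fibro-adipogenic progenitor genes, markers of the stromal cells from which muscle fat arises, overlapped at 691.7 to 1352 TPM in WT and 875.0 to 1077 TPM in KO, and so did 8 myofibre genes at 79375 to 86366 TPM and 78978 to 84695 TPM. Macrophage genes (7) were 175.0 to 602.2 TPM and 297.0 to 393.2 TPM, and endothelial genes (5) were 134.2 to 198.2 TPM and 123.9 to 215.6 TPM. The brown fat marker Ucp1 was at 0 in 5 of the 6 libraries and at 0.25 TPM in KO replicate 3, although the sum of the 5 brown adipocyte genes, nearly all from Cox8b of muscle, was 1985 to 2204 TPM in WT and 2090 to 2518 TPM in KO. Genes of B cells and lymph node, of epidermis and of acinar pancreas summed to at most 1.90, 3.70 and 0.97 TPM. The part of nerve or of other tissue taken with the muscle in the D14 result was not tested.

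On the earlier days, none of the 10 genes was called. On D7 the KO libraries lay above all WT libraries for 6 of the 10 genes (Adipoq, Plin1, Plin4, Cidec, Cfd and Lipe), against 1.85% of all genes, with fitted differences of 0.44 to 0.96. With 0% of all genes called, the adjusted p of these 6 was from 0.776 to 0.807. The KO mean of Cidec was 7.47 ± 1.27 TPM (SD, n = 3) and the WT mean 3.38 ± 0.85. On D4 none of the 10 genes was free of overlap (2.77% of all genes were, KO higher), although 9 of 10 fitted differences were positive while the median of all genes was -0.28. With 0% of all genes called on D4, the largest were Cfd at 1.46 ± 0.77 (SE; adjusted p = 0.238), Cidec at 1.21 ± 0.76 (adjusted p = 0.295) and Plin1 at 1.14 ± 0.64 (adjusted p = 0.253). Plin4 had the lowest p, at 1.05 ± 0.36 (adjusted p = 0.212), and was 0.54 without KO D4 replicate 2. Without that library each of the 10 differences on D4 was nearer to 0, at 0.64 for Cidec and 0.84 for Cfd. KO D4 replicate 2 also had a Schwann cell sum of 1363 TPM, against 335.2 and 143.1 TPM in the other KO libraries, a macrophage sum of 471.8 TPM against 3877 and 3238 TPM, and an acinar pancreas sum of 52.2 TPM against 3.07 and 11 TPM.

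On D1 only Lipe was free of overlap, against 3.33% of all genes, and 0.00636% of all genes were called. Its difference was 0.56 ± 0.24 (SE; adjusted p = 0.873). The D1 libraries scattered widely within a genotype: Cfd was 18.0, 46.4 and 250.2 TPM in WT and 303.0, 80.4 and 55.8 TPM in KO. WT replicate 3 and KO replicate 1, the highest of their groups, were also the highest in Schwann cell genes, at 280.5 and 349.7 TPM against 86.9 to 169.2 TPM in the other 4 libraries. The D1 difference of Adipoq was 0.58 with all libraries, -0.23 without KO replicate 1 and 1.56 without WT replicate 3.

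Averaged over the 4 days, all 10 genes had a positive KO minus WT difference, and 8 of them an unadjusted p under 0.05, while 27.5% of all genes were positive. None of the 10 was called, and 0.00636% of all genes were. Lipe came closest, at 0.59 ± 0.12 (SE; adjusted p = 0.223, rank 8 of all genes). Permuting genotype within days, over 160000 assignments, gave an exact two-sided p of 0.000163 for Lipe, 0.00314 for Cfd, 0.00478 for Cidec, 0.00593 for Plin1 and 0.0114 for Adipoq, all unadjusted for the genes tested. Values for the other genes were 0.0241 for Lep, 0.0285 for Plin4, 0.0531 for Adrb3, 0.179 for Pnpla2 and 0.253 for Abhd15. These tests share libraries, and most of the genes moved together across them, so that they do not count as 10 separate results. The genes were also chosen with earlier results of these data known. With quality weights Lipe was the only one of the 10 called, at 0.70 (adjusted p = 0.0307), against 0.07% of all genes.

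A test of whether the KO minus WT difference changed between days called none of the 10 genes and 0% of all genes. Adipoq had an adjusted p of 0.527 and Cfd likewise, with unadjusted p values of 0.0535 and 0.0624 from limma's F test. The larger values on D14 for Adipoq, Plin1, Cidec and Cfd were thus not shown to differ from those of other days.

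Next, the course of each genotype was examined. In WT, 3 of the 10 genes differed between days, against 66.6% of all genes: Plin4 (adjusted p = 0.000396), Abhd15 (adjusted p = 0.00804) and Adipoq (adjusted p = 0.0432, all from limma). In 9 of the 12 fits that left out a WT library, those without WT D14 replicate 2, WT D1 replicate 3 and WT D4 replicate 3 being the exceptions, the WT count was 2, and with no filter it was also 2, against 32.5% of all genes. In KO, 5 of the 10 differed, against 51.1% of all genes: Adipoq (adjusted p = 0.0205), Cfd (adjusted p = 0.0356), Lep (adjusted p = 0.0428), Cidec (adjusted p = 0.0447) and Plin1 (adjusted p = 0.0456). Of these, Lep passed the filter only through libraries where it was high, KO D14 replicates 2 and 3 among them. The KO count depended on single libraries: none was left without KO D1 replicate 3, against 36.7% of all genes, and 8 of 10 genes were called without KO D4 replicate 2, against 61.9%. Without KO D1 replicate 2, KO D7 replicate 3, KO D14 replicate 2 or KO D14 replicate 3, 1 gene was left, against 43.3% to 49.5% of all genes. Without KO D7 replicate 2, 2 were left, and without KO D4 replicate 1 or KO D7 replicate 1, 3 were left, against 48.8% to 52.1% in these fits.

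Between neighbouring days, the clearest change was that of Plin4 in WT. It fell from D1 to D4 by 1.78 on the log2 scale (SE 0.36, adjusted p = 0.0018), the only one of the 10 genes called in that step, against 19.8% of all genes. From D4 to D7 Plin4 rose by 1.16 ± 0.36 (SE; adjusted p = 0.0434), again the only call, against 12.3% of all genes. This rise was lost without any 1 of 5 of its 6 libraries (adjusted p from 0.0880 to 0.198) and stayed only without WT D4 replicate 3 (adjusted p = 0.0336). From D7 to D14 none of the genes was called in WT, against 31.8% of all genes, with values of -1.27 ± 0.77 for Adipoq and 0.90 ± 0.36 for Plin4. Without WT D1 replicate 3, in which the fat genes were high, the step from D1 to D4 called 3 genes, Adipoq (3.08), Cfd (2.32) and again Plin4, against 13.2% of all genes.

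In KO, Adipoq rose from D1 to D4 by 2.50 ± 0.77 (SE; adjusted p = 0.0301), the only one of the 10 genes called, against 19.4% of all genes. This call was lost without KO D1 replicate 2 (2.40, adjusted p = 0.0602), KO D1 replicate 3 (1.78, adjusted p = 0.176) or KO D4 replicate 2 (2.17, adjusted p = 0.101, where Plin4 was called in its place at -1.24, adjusted p = 0.0114), and without KO D1 replicate 1 there were 3 calls, against 10.4% of all genes. It was also lost with no filter (adjusted p = 0.066) and with quality weights, where Adipoq was 1.24 (adjusted p = 0.393). From D4 to D7 none was called, as was 0% of all genes, and without KO D4 replicate 2 Plin4 was called, at 1.16 (adjusted p = 0.03), against 8.75% of all genes. From D7 to D14 all 10 fitted differences were positive, from 0.15 for Abhd15 to 1.94 for Cfd, while the median of all genes was -0.19. None was called there, against 0.56% of all genes, and 6 had an unadjusted p under 0.05, against 19.3% of all genes. Lipe had the lowest adjusted p, 0.15, at 0.71 ± 0.24 (SE).

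To ask what injury itself did, WT D1 was set against uninjured control muscle in the table that holds both. Of the 10 genes, 7 passed the filter there, and Lep, Adrb3 and Abhd15 did not. By the methods the control is the uninjected opposite leg, so control and D1 libraries may come from the same mice. Which library would match which is not given. The fit was unpaired, and its p values take no account of such pairing. The fat genes fell: the fitted difference, D1 minus control, was -2.68 ± 0.72 for Adipoq (SE; adjusted p = 0.0132), -2.53 ± 0.77 for Cfd (adjusted p = 0.0216), -2.41 ± 0.69 for Cidec (adjusted p = 0.0171) and -1.77 ± 0.50 for Plin1 (adjusted p = 0.0161). These 4 calls of 7 stand against 61.1% of all 13041 genes, of which most were higher on D1, and the median of all genes was 0.66. Relative to that median Adipoq was -3.35. Pnpla2, at -0.54 ± 0.27 (SE), Plin4, at -0.53 ± 0.30, and Lipe, at -0.34 ± 0.17, were not called. Counting non-overlap, 5 of the 7 were lower in every D1 library, the 4 called genes and Lipe, against 7.03% of all genes.

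The 3 WT D1 libraries did not fall evenly. Cidec was 20.4, 20.8 and 18.2 TPM in control muscle and 0.63, 1.49 and 13.6 TPM on D1, so that replicate 3 had lost little. Replicate 3 also had a myofibre sum of 112511 TPM, against 70724 and 53637 TPM in the others, and the lowest macrophage sum of the 3, 792.4 TPM. The Schwann cell sum also fell from control muscle to D1, from 458.7, 307.3 and 334.7 TPM to 86.8, 93.3 and 280.1 TPM, without overlap. Within control muscle, replicate 1 had the highest Schwann cell sum and the lowest Adipoq. Adipoq spanned only 23.1 to 32.4 TPM there, and 3 libraries cannot show whether it and the Schwann cell sum go together. The part of these cell types in the result was not tested. Without WT D1 replicate 3, Adipoq was -3.67 and 6 genes were called, against 69.9% of all genes. Without WT D1 replicate 1 or 2, Cidec and Cfd were no longer called and 2 calls were left, Adipoq and Plin1, against 50.2% and 53.3% of all genes. Cidec had an adjusted p of 0.0579 without replicate 1 and 0.0530 without replicate 2. Without control replicate 1, Cfd was lost (adjusted p = 0.0521), and without control replicate 2, Adipoq (adjusted p = 0.0539), Cidec and Cfd were lost and Plin1 was left, with 44.8% and 43.8% of all genes called in these fits. The calls also ended when no filter was applied, where 25.8% of all genes were called, and Plin4, Lipe and Pnpla2 joined them, for 7 of 7, when libraries were scaled by median ratios, against 42.4% of all genes. The methods describe 2 batches of RNA-seq: injured and uninjured muscle 1 day after injury, and WT and KO muscle of all days. Which batch the WT D1 libraries belonged to is not stated. Injury and batch thus cannot be told apart here, nor genotype and batch on D1. The same limit holds for the other comparisons that use the WT D1 libraries, such as the step of Plin4 from D1 to D4 in WT and the average over days.

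Beside these tests, the D14 levels can be set against the control level, without a test because the 2 tables were made separately. The WT D14 mean was 0.114 times the control mean for Adipoq, 0.131 for Cidec, 0.148 for Cfd and 0.171 for Plin1. The KO D14 mean was 1.62 times the control mean for Adipoq, 1.83 for Cidec, 2.00 for Cfd and 1.96 for Plin1. Thus the KO D14 means were above and the WT D14 means below the control for these 4 genes. Only KO D14 replicates 2 and 3 were above every control library. KO D14 replicate 1 was below the lowest control library for Adipoq (18.2 against 23.1 TPM), Cidec (12.4 against 18.2 TPM) and Cfd (267.9 against 302.1 TPM). For Plin1, at 7.5 TPM, it lay within the control range of 6.73 to 10.2 TPM. For Pnpla2 and Plin4, the WT D14 means were 0.862 and 0.756 times and the KO D14 means 1.07 and 0.856 times the control.

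How closely the genes moved together was described over the 24 injured libraries, with no p value, because the libraries share groups and the TPM scale. Pearson's r of log2(TPM + 1) among Adipoq, Plin1, Cidec and Cfd was 0.94 to 0.98 over the 6 pairs. After each group's mean was subtracted, it was still 0.91 to 0.98, so that libraries high in one were high in all 4 within a group of the same day and genotype. The ratio of Cfd to Adipoq stayed between 5.98 and 36.4 and that of Cidec to Adipoq between 0.278 and 1.18, whereas Adipoq itself ran from 0.80 to 72.2 TPM. Within groups, Lep, Adrb3 and Lipe had r of 0.77, 0.74 and 0.68 with Adipoq. Pnpla2 and Plin4 formed a pair of their own (r = 0.78 with each other, 0.24 each with Adipoq). Abhd15 had r within groups of -0.39 with Adipoq and -0.63 with Plin4, but 0.05 with Lep. Over all 24 libraries its r was 0.07 with Adipoq and -0.57 with Plin4.

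**Figure D4:**
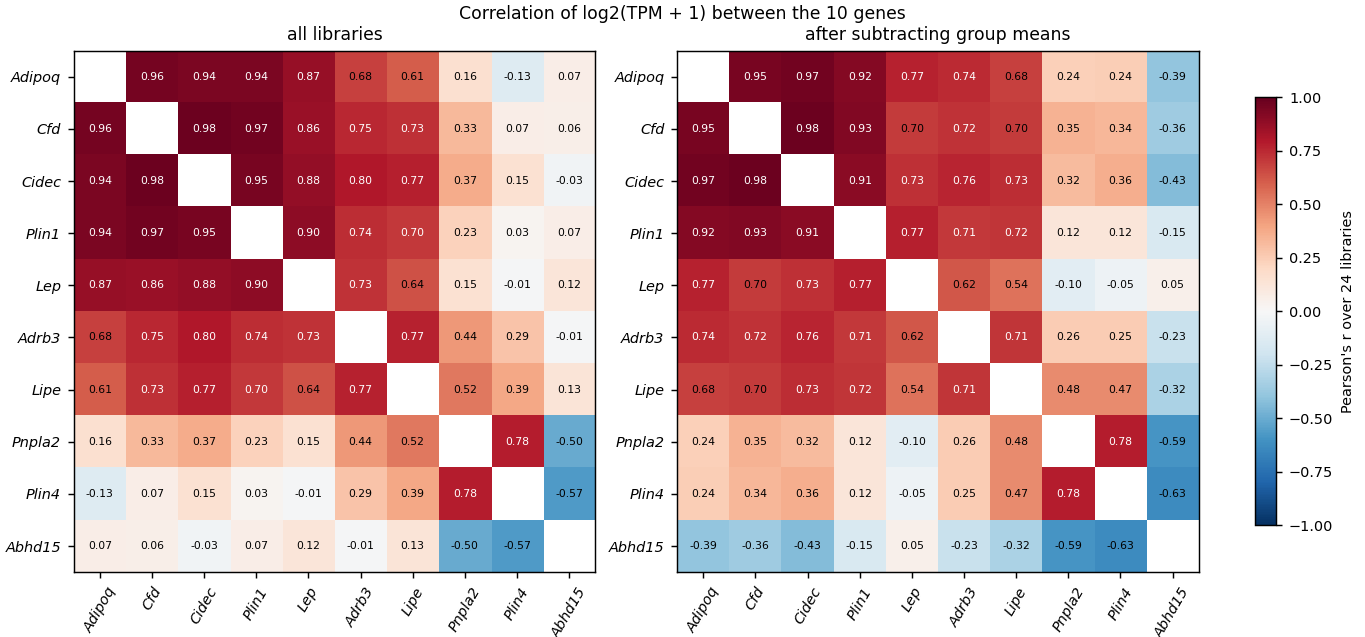
Pearson's r of log2(TPM + 1) between each pair of genes over the 24 injured libraries, before (left) and after (right) each group's mean was subtracted; red is positive and blue negative. Adipoq, Cfd, Cidec and Plin1 form a block with r of at least 0.91 in both panels, Pnpla2 pairs with Plin4, and Abhd15 is negative with both of these.

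Among all genes tested, those most like Adipoq included several that are known from fat cells. By r over the 24 libraries they were Scd1 (0.95), a desaturase of fatty acid synthesis, Cdo1 (0.93), which degrades cysteine, Retn (0.91), the adipokine resistin, Slc7a10 (0.91), an amino acid transporter, Cyp2e1 (0.89), Mrap (0.88), a partner of melanocortin receptors, Mup22 (0.88), Pck1 (0.87), which feeds glyceroneogenesis, Ptger3 (0.87), a prostaglandin receptor, and Cyp2f2 (0.86). In all, 24 genes outside the 10 had r over 0.8, and the median over all genes was -0.01. After group means were subtracted, Orm1 (0.92), Retn (0.92), Cdo1 (0.90), Scd1 (0.90), Mrap (0.89), Cyp2e1 (0.87), Serpina3c (0.87), Lgals12 (0.86), Cyp2f2 (0.84) and Slc7a10 (0.81) led. Mup22 belongs to a family of near-identical genes, whose reads may be split between copies.

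The other genes had other neighbours. The single gene most like Cidec was Retn (0.97), as it was for Cfd (0.96), and for Plin1 it was Mrap (0.93). For Lep it was Ptger3 (0.94), for Adrb3 the carboxylesterase gene Ces1f (0.88) and for Lipe the amino acid transporter gene Slc36a2 (0.85). Slc36a2 is also on the list of brown adipocyte genes. For Pnpla2 it was Acacb (0.94), the acetyl-CoA carboxylase of muscle mitochondria, and for Plin4 it was Txlnb (0.90), a muscle protein. For Abhd15 it was Pygl (0.92), a glycogen phosphorylase. After subtraction of group means the nearest were Retn for Cidec (0.96), Cdo1 for Cfd (0.93), Mrap for Plin1 (0.90), Apcdd1 for Lep (0.89), Ces1f for Adrb3 (0.86) and Slc36a2 for Lipe (0.96). For Pnpla2 it was then Pdpr (0.95), for Plin4 the transcription factor gene Klf15 (0.88) and for Abhd15 an assembled locus without a gene name (0.97).

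Finally, other genes of fat storage were examined in 5 groups, which were also chosen with earlier results of these data known. On D14 none was called, while 71.4% of all genes tested were higher in KO and 2.06% had an unadjusted p under 0.05. Among 12 other adipocyte markers, 11 were tested, all 11 were higher in KO, and 7 had an unadjusted p under 0.05, with a median difference of 0.69 against 0.08 over all genes. Trarg1, a regulator of glucose transporter trafficking, had 0.45, 0.78 and 0.73 TPM in WT and 1.31, 2.56 and 3.43 TPM in KO (1.01 ± 0.25, SE; adjusted p = 0.361). Thrsp, a lipogenic factor (1.14 ± 0.33), and the adipogenic transcription factor genes Cebpa (1.06 ± 0.38) and Pparg (0.71 ± 0.28) followed. Of 5 other adipokines, all 5 tested and positive, 2 had an unadjusted p under 0.05. Retn was 1.07, 2.94 and 1.30 TPM in WT and 10.7, 42.0 and 26.4 TPM in KO (3.17 ± 0.68, SE; adjusted p = 0.22), and the retinol carrier Rbp4 differed by 1.31 ± 0.40 (adjusted p = 0.897). Rarres2, which encodes chemerin, and Nampt differed by 0.33 ± 0.27 and 0.12 ± 0.16.

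Of 8 other lipolysis enzymes and regulators, 7 were positive and 3 had an unadjusted p under 0.05, with a median of 0.47. Ces1f, at 0.34, 0.03 and 0.21 TPM in WT and 0.77, 6.84 and 2.60 TPM in KO, differed by 1.63 ± 0.36 (SE; adjusted p = 0.223). Prkar2b, a regulatory subunit of protein kinase A (1.21 ± 0.44), Ces1d (1.17 ± 0.50) and Abhd5, the co-activator of adipose triglyceride lipase (0.27 ± 0.15), came next. Ces1f and Ces1d are close paralogs, and their reads may be split. Of 9 lipid droplet proteins, 8 were tested and 6 positive, with 1 at an unadjusted p under 0.05 (Bscl2, or seipin, 0.56 ± 0.22) and values of 0.40 ± 0.37 for Cidea, 0.18 ± 0.18 for Plin3 and 0.56 ± 0.58 for Plin5. Of 9 receptors for catecholamines, lactate, leptin, adiponectin and insulin, 7 were tested and all 7 positive, with values of 0.26 ± 0.13 for Adipor2, 0.39 ± 0.23 for Lepr and 0.19 ± 0.14 for Insr.

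In the control comparison, 55.4% of all genes were called higher on D1 and 5.64% lower, and these groups did not move one way. Of 8 lipid droplet proteins tested, 3 were called higher and 2 lower on D1, of 7 lipolysis genes 1 higher and 3 lower, of 5 adipokines 2 higher and 1 lower, of 5 receptors 1 higher and 0 lower, and of 11 adipocyte markers 1 higher and 2 lower. The median of the adipocyte markers was -0.13, against -1.77 for the 7 tested of the 10 genes. Fabp4 and Cd36, which endothelium and muscle fibres also express, are among these markers. Fabp4 was 263.7, 325.1 and 288.0 TPM in control muscle and 324.4, 304.9 and 346.9 TPM on D1.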

How the data were processed

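RNA-seq libraries (27) were analysed from TPM as deposited by the authors, in a table of 24 injured libraries and a table of 3 control and the same 3 WT D1 libraries, and some WT D1 values differ between the tables (Plin1 in replicate 2 was 2.90 and 2.31 TPM). Per the labels, RNA was extracted with TRIzol, a SMARTER mRNA kit and paired-end Illumina sequencing were used, and the submitters' processing notes name mm10. The aligner, the counter and its use of strand are not given in the sources used here. The sample titles gave each library its group and number. Deposited group means were not used.

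Depth is unknown from TPM, and no interval or count test was possible. Values were analysed as log2(TPM + 1) for genes with at least 1 TPM in at least 3 libraries (15718 in the injured and 13041 in the control table), by limma 3.58.1 (R 4.3.3) with group means, contrasts, empirical Bayes moderation with a variance trend and Benjamini-Hochberg adjustment over all genes. Each test stayed within 1 table. On simulated data with 200 changed genes, the calls and signs were tested before use. Single genes were also tested by exact two-sided permutation (Python 3.11.15). Alternatives were a pseudocount of 0.1, no filter, a minimum of 5 TPM, median-of-ratios scaling, quantile normalization, quality weights, a replicate block, the libraries of 1 day alone and leaving out each library.

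The 10 genes, the gene groups and the marker lists were chosen with earlier results of these data known. Of the groups, up to 4 genes each were named by the lowest p on D14. The value of 1 gene that this rule names is not reported here. Genes like Adipoq were the 10 with the highest r, and 1 was named for each other gene. Fabp4 and Ucp1 were named after their values were seen. Promoters came from RefSeq (GRCm38, the same assembly as mm10), and gene positions and overlaps from GENCODE for mm10.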

Additional observations from a re-analysis of the deposited data

How the results depend on the processing

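The sign of the D14 and averaged KO minus WT differences was kept by all 10 genes under every alternative run. The signs that changed belonged to values that were not called under any alternative. On D1, Lep was -0.015 with median-of-ratios scaling and -0.065 with quantile normalization, and Plin4 was 0.077 with quality weights. On D7, Abhd15 was 0.067 with quantile normalization and 0.027 with quality weights, and Pnpla2 was -0.15 and Adrb3 -0.10 with quality weights. With each library left out, the D1 difference ranged from -0.23 to 1.56 for Adipoq, -0.069 to 0.15 for Lep, -0.33 to 0.85 for Plin1, -0.34 to 0.28 for Plin4, -0.18 to 1.5 for Cidec, -0.26 to 0.31 for Pnpla2 and -0.27 to 0.49 for Adrb3. On D4 it ranged from -0.021 to 0.52 for Lep, on D7 from -0.076 to 0.11 for Pnpla2 and -0.064 to 0.18 for Adrb3, and for Abhd15 in KO from D1 to D4 from -0.74 to 0.066.

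The number of the 10 genes called moved as follows. With quality weights, calls (with the share of all genes called in the same fit) were 6 for KO minus WT on D14 (0.324%), 1 for the average over days (0.07%), 5 for days in WT (86.1%), 10 for days in KO (84%), 3 for WT D4 to D7 (67.4%), 3 for WT D7 to D14 (60.5%), 0 for KO D1 to D4 (13.3%), 9 for KO D7 to D14 (50%) and 7 for WT D1 minus control (83.2%). The weights did not converge. With a pseudocount of 0.1, calls were 1 for WT D7 to D14 (35.7%) and 2 for days in KO (51%). With no filter, calls were 0 for WT D4 to D7 (4.55%), days in KO (21.8%), KO D1 to D4 (7.27%) and WT D1 minus control (25.8%), where more genes with low values were tested. With median-of-ratios scaling, calls were 0 for WT D4 to D7 (11.7%), 1 for WT D7 to D14 (13.7%) and 7 for WT D1 minus control (42.4%). With each library left out, calls ranged from 0 to 1 for KO minus WT on D14, WT D4 to D7 and KO D4 to D7, from 1 to 3 for WT D1 to D4, from 0 to 3 for KO D1 to D4, from 0 to 8 for days in KO, from 2 to 4 for days in WT and from 1 to 6 for WT D1 minus control. The cause of these moves was otherwise not tested. A minimum of 5 TPM left Lep, Adrb3 and Abhd15 without a test.

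Whether the replicate numbers pair the libraries is not stated. Of 12 pairs of a WT and a KO library of the same day and number, 4 had a correlation of deviations over 0.1 (range -0.40 to 0.39). These values do not settle whether the libraries were paired, and control and D1 libraries were not examined in this way. With the replicate block, calls were 0 for WT D4 to D7 (12.2%), 2 for days in KO (50.5%) and 2 for days in WT (65.9%), and no other count changed by over 1.5 times. Lep and Adrb3 were below 1 TPM in most libraries, and without read numbers the precision of such values is unknown. Under the filter of 1 TPM in at least 3 libraries, they enter the counts of genes called only through libraries where they were high.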
